A study of Homo sapiens with 16 samples.

Results

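The cyclin-dependent kinase inhibitor genes CDKN1A, CDKN1B, CDKN1C, CDKN2A, CDKN2B, CDKN2C and CDKN2D were followed across a drug combination experiment in MDA-MB-231 cells. They were taken by name from the deposited table of array signals, where they are 7 of 34691 rows, and all 7 are described, whether or not the scanner software called them detected. MDA-MB-231 is an established breast cancer line, mesenchymal in character, that lacks the hormone receptors and is known to have lost the CDKN2A locus. Cells received, for 48 h, entinostat at 2.5 µM, ATRA (all-trans retinoic acid) at 1 µM, doxorubicin at 0.2 µM, each pair of these drugs, all 3 together, or DMSO, the vehicle. Every group was grown in DMEM with 10% FBS and has 2 arrays, which makes 8 groups and 16 Illumina arrays. Entinostat blocks histone deacetylases of class I, ATRA is a ligand of the retinoic acid receptors, and doxorubicin, an anthracycline, damages DNA through topoisomerase II. The series was designed to find the expression signatures of an epigenetic, a differentiating and a chemotherapy drug alone and combined. The labels number the 2 arrays of a group without naming separate cultures, and the spread behind the p-values may therefore be technical.

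Progress through the cell cycle is driven by cyclins bound to cyclin-dependent kinases, and the proteins of these genes hold the kinases back. The CIP/KIP family, made of p21 (CDKN1A), p27 (CDKN1B) and p57 (CDKN1C), binds whole cyclin and kinase complexes and acts mainly on those of CDK2. The INK4 family, made of p16 (CDKN2A), p15 (CDKN2B), p18 (CDKN2C) and p19 (CDKN2D), binds CDK4 and CDK6 alone and keeps the D-type cyclins off them. CDKN1A is known to be induced after DNA damage and is also a textbook example of a gene switched on by histone deacetylase inhibitors, through GC boxes near its start that bind SP1 and SP3.

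RefSeq promoters matched 6 of the 7 genes, all but CDKN1C. The 250 bases before the start were searched for the GC box GGGCGG on both strands, with overlapping matches counted. Of 35116 such windows over all genes, 42.6% held at least 1 GC box. The share with 4 or more was not counted. Below are the CDKN1A window with 4 matches (chr6:36678464-36678713, plus strand), the CDKN2C window with 5 matches (chr1:50968456-50968705, plus strand, the second of 3 annotated starts, whose other windows hold 0 and 1), the CDKN1B window with 1 match (chr12:12717118-12717367, plus strand) and the CDKN2D window with 2 matches (chr19:10568980-10569229, minus strand), all in GRCh38.p14 and written 5′ to 3′. They are shown because these genes had both a matched promoter and a clear signal. CDKN1C, which also varied over the drugs, had no match. Capitals mark the GC boxes, and the last run of capitals in CDKN1A holds 2 overlapping ones. The GC boxes are a description of these letters, and the array data do not say which protein bound there.
CDKN1A promoter: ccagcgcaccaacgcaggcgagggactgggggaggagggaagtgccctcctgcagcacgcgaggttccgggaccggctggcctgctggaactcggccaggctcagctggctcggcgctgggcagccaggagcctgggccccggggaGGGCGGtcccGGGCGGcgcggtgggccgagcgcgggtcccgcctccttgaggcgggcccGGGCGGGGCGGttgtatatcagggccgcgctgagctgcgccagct
CDKN2C promoter, second start: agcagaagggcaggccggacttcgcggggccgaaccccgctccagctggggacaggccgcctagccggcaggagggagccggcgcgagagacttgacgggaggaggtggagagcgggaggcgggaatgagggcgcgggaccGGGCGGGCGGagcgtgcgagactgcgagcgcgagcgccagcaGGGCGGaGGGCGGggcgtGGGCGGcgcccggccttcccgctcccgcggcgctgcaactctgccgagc
CDKN1B promoter: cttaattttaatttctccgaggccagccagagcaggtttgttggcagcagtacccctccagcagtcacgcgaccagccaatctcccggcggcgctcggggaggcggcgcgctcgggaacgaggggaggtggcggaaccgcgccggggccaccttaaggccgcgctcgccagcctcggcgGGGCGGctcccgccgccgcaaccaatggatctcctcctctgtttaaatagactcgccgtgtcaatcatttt
CDKN2D promoter: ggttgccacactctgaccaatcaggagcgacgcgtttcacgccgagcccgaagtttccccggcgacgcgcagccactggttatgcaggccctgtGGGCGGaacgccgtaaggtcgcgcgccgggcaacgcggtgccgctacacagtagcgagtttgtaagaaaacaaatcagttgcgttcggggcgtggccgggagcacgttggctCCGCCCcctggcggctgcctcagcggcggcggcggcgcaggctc

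Between 11402 and 12748 named genes were detected per array (36.4% to 40.7%, at a deposited detection p-value below 0.05), and the 2 arrays of a group correlated at r = 0.9807 to 0.9909 over the tested genes. All 6 markers chosen for the line (VIM, CD44, CAV1, AXL, MSN and LGALS1) were detected on 16 arrays, and the signals of VIM, an intermediate filament of mesenchymal cells, ran from 11816.6 to 18801.8. Of the 6 luminal or epithelial markers, ESR1 and PGR were detected on 0 arrays, CDH1 on 1 and GATA3 on 2, while EPCAM and KRT19 were detected on 16. The summed signal of these 6 genes was 1102 to 3213 on the 8 arrays with entinostat and 301.8 to 753.4 on the 8 arrays without it. KRT19 alone had 898.5 to 2986 and 129.9 to 572.3 on these arrays. EPCAM had 131 to 269.7 over all arrays, and ESR1, PGR, CDH1 and GATA3 reached 22.3 at most. Of 7 markers of blood, endothelium and fibroblasts, PTPRC, CD3E and DCN were detected on 0 arrays, COL1A2 on 2, VWF on 4, COL1A1 on 6 and PECAM1 on 13, and the summed signal reached 149.6 at most, on an array with entinostat and doxorubicin. VWF, an endothelial blood clotting protein, had signals of 88 and 122 with entinostat and doxorubicin and 27.9 and 88.7 with all 3 drugs, its 4 detected arrays, against -18.8 and -11.1 in DMSO. These are the 4 arrays on which CDKN1C and CDKN2D were brightest. PECAM1, an endothelial adhesion protein, had 11.3 to 104.3 over all arrays. The part of these markers in the results below was not tested.

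Every value of a gene is given first as the deposited signal, a background-subtracted array intensity on a linear scale. Changes are log2 differences of normalized signals from 1 limma fit of 17126 genes, with their standard error (SE) and a p-value adjusted over all of these genes (Benjamini-Hochberg), and a change was called at an adjusted p below 0.05. Of the 7 genes, 6 passed the detection filter of this fit, all but CDKN2A. Only 2 arrays per group limit the precision. Signals of different genes come from different probes and are not compared with each other. An array of a whole culture cannot tell fewer expressing cells from less RNA per cell.

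**Figure D1:**
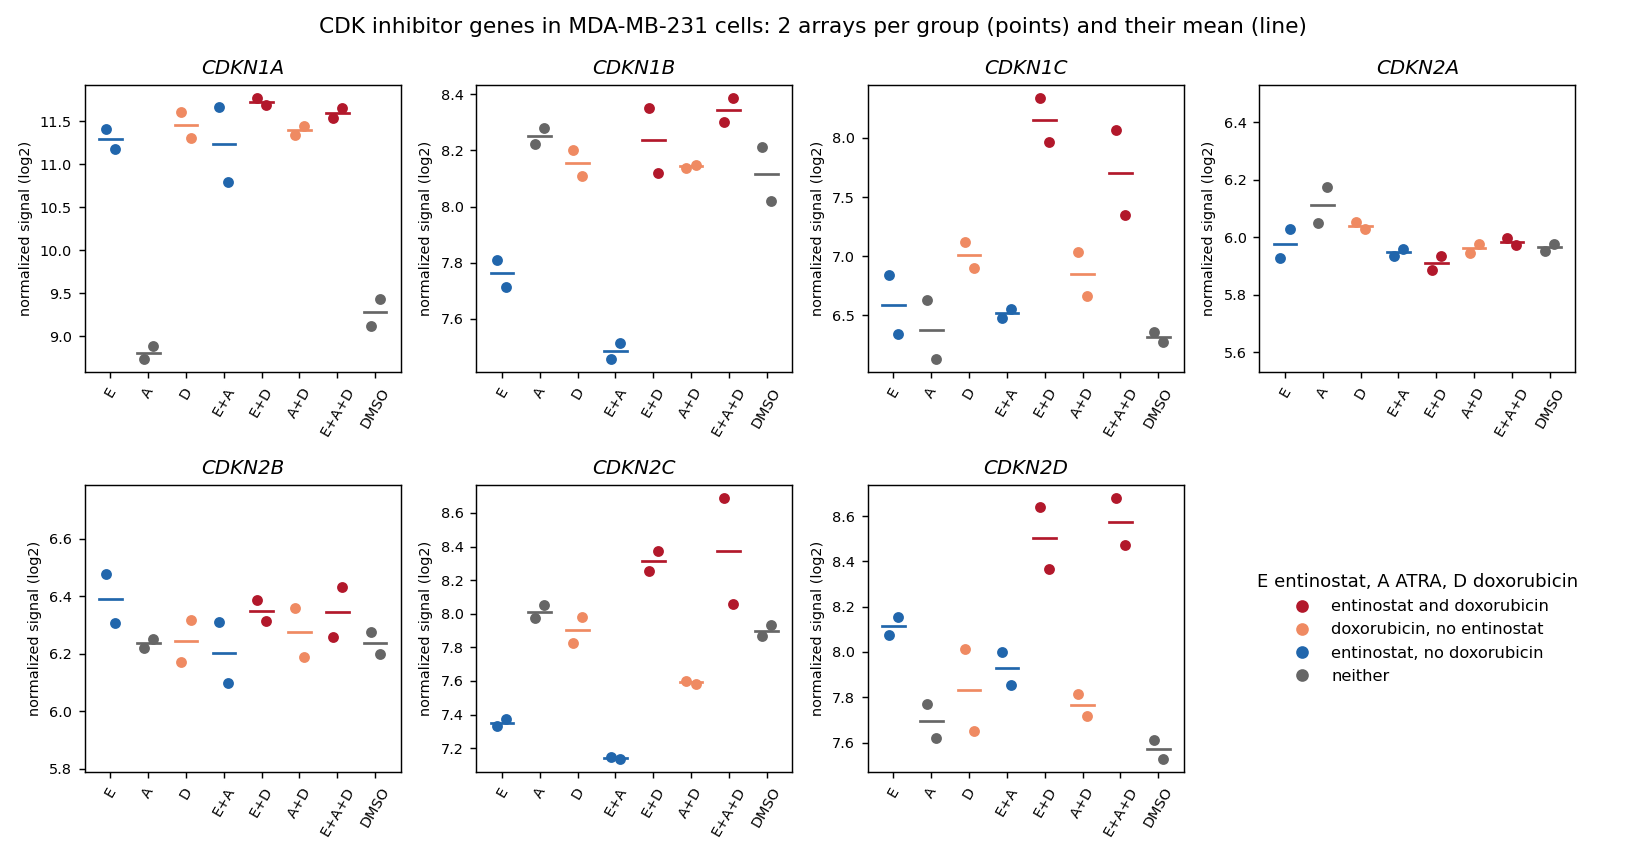
Normalized signal (log2, vertical axis) of each CDK inhibitor gene on every array, with the 8 groups on the horizontal axis (E entinostat, A ATRA, D doxorubicin), points for the 2 arrays of a group and a line for their mean. CDKN1A sits high in every group that got entinostat or doxorubicin, CDKN1B and CDKN2C are lowest with entinostat and no doxorubicin, and CDKN1C and CDKN2D are highest where both drugs were given.

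CDKN1A, which encodes p21 and blocks CDK2 complexes, rose in each of the 6 groups that received entinostat or doxorubicin and in no other. The deposited signals were 2661.9 and 2234.1 with entinostat alone and 3024.6 and 2431.1 with doxorubicin alone. They were 3193 and 1691.8 with entinostat and ATRA, 3433.7 and 3233.8 with entinostat and doxorubicin, and 2512.9 and 2719.6 with ATRA and doxorubicin. With all 3 drugs they were 2913.5 and 3150, and with ATRA alone 357.1 and 404.8, against 487 and 626.8 in DMSO. The 12 arrays with entinostat or doxorubicin covered 1691.8 to 3433.7, the 4 arrays with neither drug covered 357.1 to 626.8, and these ranges did not overlap.

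Against DMSO, CDKN1A was 4.03-fold higher with entinostat (log2 change 2.01, SE 0.22, adjusted p = 0.000411) and 4.51-fold higher with doxorubicin (log2 change 2.17, adjusted p = 8.04e-05). The entinostat and doxorubicin pair gave the largest of the 7 changes, 5.45-fold (log2 change 2.45, adjusted p = 3.85e-06), and the 3 drugs together gave 4.98-fold (log2 change 2.31, adjusted p = 6.71e-06). The entinostat and ATRA pair gave 3.87-fold and the ATRA and doxorubicin pair 4.34-fold (adjusted p = 0.00033 and 7.31e-05). ATRA alone left CDKN1A uncalled, with a log2 change of -0.47 (unadjusted p = 0.0509, adjusted p = 1). In the order of group means, running from entinostat with doxorubicin at the top down through all 3 drugs, doxorubicin, ATRA with doxorubicin, entinostat, and entinostat with ATRA, no 2 neighbours were called different. The next step, between entinostat with ATRA and DMSO, was called (log2 difference 1.95, adjusted p = 0.00033), and the last, between DMSO and ATRA, was not. The detection p-values of CDKN1A ran from 0.00264 to 0.42392 in spite of these signals, and it passed the filter through 4 detected arrays. The highest signal of any gene on an array was 20404.6 to 22098.4, and the highest of CDKN1A was 3433.7. Whether the signal of CDKN1A nears a ceiling was not tested.

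The rises with the single drugs did not add up on the log2 scale. Over both levels of ATRA, the log2 change of CDKN1A with entinostat was 0.24 on top of doxorubicin (SE 0.15, 95% interval -0.10 to 0.57, adjusted p = 0.337), while entinostat raised it 4.64-fold where doxorubicin was absent (log2 change 2.22, SE 0.15, adjusted p = 2.17e-06). The log2 change with doxorubicin was 0.40 on top of entinostat (95% interval 0.07 to 0.73, adjusted p = 0.0619), and doxorubicin raised it 5.20-fold where entinostat was absent (log2 change 2.38, adjusted p = 5.06e-07). The interaction itself, the difference between the entinostat effects with and without doxorubicin, was -1.98 (SE 0.22, 95% interval -2.45 to -1.51, adjusted p = 0.000459). Median signals were 3191.9 with both drugs, 2616.25 with doxorubicin and no entinostat, 2448 with entinostat and no doxorubicin, and 445.9 with neither, over 4 arrays each. The change of doxorubicin on top of entinostat was called without entinostat and ATRA replicate 1, the brighter array of its group (log2 change 0.62, adjusted p = 0.00154), and with the replicate number as a block (adjusted p = 0.0467).

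**Figure D2:**
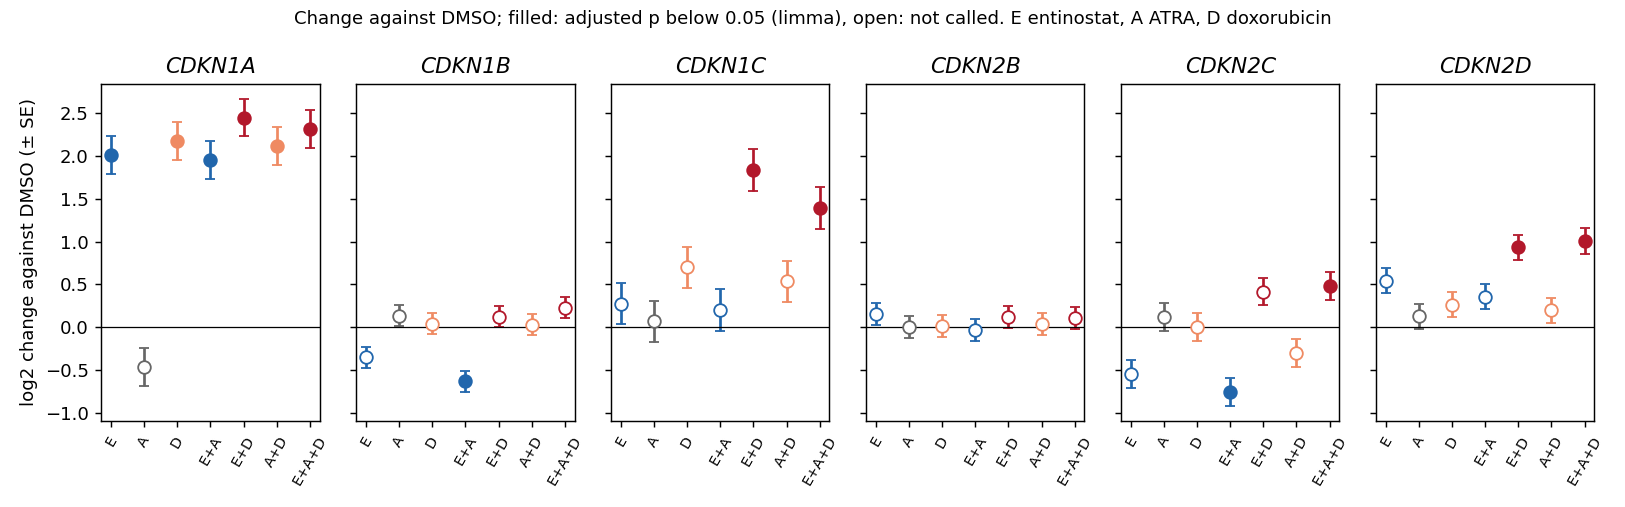
Log2 change against DMSO (vertical axis, bars are SE) for the 6 tested genes in each of the 7 treatments (E entinostat, A ATRA, D doxorubicin), with filled points for adjusted p below 0.05. CDKN1A has 6 filled points between 1.95 and 2.45, CDKN1C and CDKN2D are filled where both entinostat and doxorubicin are present, and CDKN2B stays near 0.

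CDKN1B, which encodes p27, an inhibitor raised in resting cells and known to be controlled largely through protein turnover, was detected on 16 of 16 arrays and moved the other way with entinostat. The signals were 157.2 and 141.1 with entinostat alone and 108.7 and 114.6 with entinostat and ATRA, against 227 and 192 in DMSO. These 4 arrays lay below the 12 others, which covered 192 to 267.6. With doxorubicin added, the signals were 261 and 209.3 for the pair with entinostat and 247.3 and 267.6 for all 3 drugs. ATRA gave 230 and 242.9, doxorubicin 227.2 and 205.5, and ATRA with doxorubicin 212.9 and 213.7, and of these only the ATRA arrays lay wholly above the DMSO arrays, by a small step.

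The fall of CDKN1B against DMSO was called for entinostat with ATRA (log2 change -0.63, SE 0.12, adjusted p = 0.0131) and not for entinostat alone (log2 change -0.35, adjusted p = 0.204). The call was lost without DMSO replicate 1 (adjusted p = 0.149), without entinostat and ATRA replicate 1 (adjusted p = 0.134) and in a fit of these 4 arrays alone (adjusted p = 0.0621). Entinostat with ATRA against entinostat alone gave a log2 change of -0.28 (unadjusted p = 0.039 in limma), which was not called. Over both levels of ATRA, 4 arrays against 4, the log2 change of CDKN1B with entinostat on top of doxorubicin was 0.14 (95% interval -0.05 to 0.32, adjusted p = 0.304). Without doxorubicin entinostat lowered it to 0.68-fold (log2 change -0.56, SE 0.09, adjusted p = 0.00129). The interaction was 0.70 (SE 0.12, adjusted p = 0.0107). Read the other way, doxorubicin raised CDKN1B on top of entinostat (log2 change 0.67, adjusted p = 3.92e-05), and without entinostat its change was -0.03 (95% interval -0.22 to 0.15, adjusted p = 0.837).

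CDKN1C, which encodes p57, an imprinted inhibitor of embryonic and differentiating tissues, was dim in DMSO and bright where entinostat and doxorubicin met. The signals were 257.1 and 180.5 with entinostat and doxorubicin and 200.1 and 95.1 with all 3 drugs, against 13.4 and 8.7 in DMSO, where neither array was well above background (detection p-values 0.11558 and 0.15974). These 4 combination arrays lay above all 12 others. Intermediate signals came with doxorubicin alone (70.3 and 50.7) and with ATRA and doxorubicin (61.8 and 32.8). Entinostat alone gave 46.8 and 12.4, ATRA alone 30.5 and 1.5, and entinostat with ATRA 20.8 and 25.8, so the arrays of a group differed widely at this brightness.

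Relative to DMSO, CDKN1C was 3.57-fold higher with entinostat and doxorubicin (adjusted p = 7.85e-05) and 2.63-fold higher with all 3 drugs (adjusted p = 0.000656). These folds hold for this background correction, and since DMSO was not well above background their size is uncertain. With the background fitted from the detection p-values the log2 changes were 0.38 and 0.24 in place of 1.84 and 1.39, and both stayed called (adjusted p = 0.00291 and 0.0231). Neither entinostat alone (log2 change 0.28, adjusted p = 0.742) nor doxorubicin alone (log2 change 0.70, SE 0.24, adjusted p = 0.0746) was called, and the doxorubicin change was called with the replicate number as a block (adjusted p = 0.00773) and in a fit of the 4 arrays of this comparison alone (adjusted p = 0.0444). Over 4 arrays against 4, entinostat raised CDKN1C 2.00-fold on top of doxorubicin (log2 change 1.00, SE 0.17, adjusted p = 0.00115), and its change without doxorubicin was 0.21 (adjusted p = 0.576). Doxorubicin raised it on top of entinostat (log2 change 1.38, adjusted p = 2.87e-05) and without it (log2 change 0.58, adjusted p = 0.0208). The last of these calls was lost without any of DMSO replicate 2, ATRA replicate 2, doxorubicin replicate 1 or ATRA and doxorubicin replicate 1 (adjusted p up to 0.101), and with the background fitted from the detection p-values (adjusted p = 0.336). The interaction was 0.79 (SE 0.24, adjusted p = 0.122), so a difference between the effects with and without the other drug was not called. It was called without replicate 2 of the 3-drug group (adjusted p = 0.0402) and with the replicate block (adjusted p = 0.0134).

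CDKN2C, which encodes p18, an INK4 inhibitor, rose with entinostat where doxorubicin was present and fell with it where doxorubicin was absent. The signals were 93.1 and 96.7 with entinostat alone and 73.5 and 71.7 with entinostat and ATRA, against 163.2 and 175.9 in DMSO. They were 238.3 and 262.2 with entinostat and doxorubicin and 343.7 and 196.8 with all 3 drugs. Doxorubicin alone gave 159 and 183, ATRA alone 182.8 and 197.6, and ATRA with doxorubicin 125.5 and 122.4. The 4 arrays with entinostat and no doxorubicin were the lowest of the 16, and 3 of the 4 arrays with both drugs were the highest, with the fourth just below the brighter ATRA array.

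Over both levels of ATRA, entinostat raised CDKN2C 1.51-fold on top of doxorubicin (log2 change 0.60, SE 0.12, adjusted p = 0.0026) and lowered it to 0.61-fold without doxorubicin (log2 change -0.71, SE 0.12, adjusted p = 0.0019). The interaction was 1.31 (SE 0.16, adjusted p = 0.00124). With the background fitted from the detection p-values the fall was -0.18 and its call was lost (adjusted p = 0.0944), while the interaction was 0.40 (adjusted p = 0.0347). Doxorubicin raised it 2.14-fold on top of entinostat (log2 change 1.10, adjusted p = 6.97e-06), and without entinostat its change was -0.21 (95% interval -0.45 to 0.04, adjusted p = 0.223). Against DMSO, with 2 arrays on each side, 2 of the 7 changes were called, and both calls depended on single arrays. The fall with entinostat and ATRA (log2 change -0.76, SE 0.16, adjusted p = 0.0244) was lost without any 1 of its 4 arrays (adjusted p from 0.0937 to 0.163). The rise with all 3 drugs (log2 change 0.48, adjusted p = 0.0419) was lost without the brighter array of that group, replicate 1 (log2 change 0.16, adjusted p = 0.513), and without DMSO replicate 1 or 2 (adjusted p = 0.17 and 0.106). The detection p-value was below 0.05 on 10 of 16 arrays. It did not follow the signal, with 0.05845 at 196.8 and 0.00028 at 96.7.

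CDKN2D, which encodes p19, the other INK4 inhibitor with clear signal, was highest where both drugs were given. The signals were 332.9 and 260.5 with entinostat and doxorubicin and 341.1 and 286.7 with all 3 drugs, against 126.4 and 114.6 in DMSO. These 4 arrays lay above all 12 others. Entinostat alone gave 200.8 and 216.8, entinostat with ATRA 189.7 and 164.6, and doxorubicin alone 191.2 and 130.7. ATRA with doxorubicin gave 155.5 and 140.3 and ATRA alone 148.2 and 127.9, and the DMSO arrays were the lowest of the 16.

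CDKN2D rose 1.91-fold with entinostat and doxorubicin (log2 change 0.93, SE 0.15, adjusted p = 0.000319) and 2.01-fold with all 3 drugs (log2 change 1.01, adjusted p = 0.000184). Over 12 alternative runs of the fit these log2 changes went as low as 0.34 and 0.38, and both stayed called. The log2 changes with entinostat alone (0.54, adjusted p = 0.0946) and doxorubicin alone (0.26, adjusted p = 0.287) were not called, and with the replicate number as a block the first of them was called (adjusted p = 0.0259). Unlike CDKN1A, CDKN1B and CDKN2C, it gave no called interaction (0.35, SE 0.15, adjusted p = 0.288). Entinostat raised it on top of doxorubicin (log2 change 0.74, SE 0.10, adjusted p = 0.000279) and without doxorubicin (log2 change 0.39, adjusted p = 0.0365). The call without doxorubicin was lost without any 1 of the 8 arrays of that comparison (adjusted p from 0.0519 to 0.136), and with the background fitted from the detection p-values (adjusted p = 0.127). Only 4 of the 16 arrays had a detection p-value below 0.05 for this gene. These p-values did not follow its signal, with 0.10038 at 332.9 and 0 at 260.5.

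CDKN2A and CDKN2B, neighbours on chromosome 9 that encode p16 and p15, showed little or no signal. CDKN2A was detected on 0 of 16 arrays, its signals ran from -9.3 to 3.8, and 15 of the 16 were below 0. It was not tested with the other genes, and in a fit of 31329 genes without the detection filter its changes against DMSO lay between -0.06 and 0.15 on the log2 scale, with no adjusted p below 0.784. The signals of CDKN2B were 0.2 to 20.6, all below the limit of 22.3 that is 3 times the noise SD, although 7 arrays had a detection p-value below 0.05. Its brightest array was 1 of the 2 with entinostat alone (20.6 and 10.6), against 8.8 and 5 in DMSO, a log2 change of 0.15 (adjusted p = 0.723).

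Other genes of the same stretch of chromosome 9 were also dim. Of 10 names listed as neighbours, 9 were in the table and 7 of these (CDKN2BAS, DMRTA1, ELAVL2, KLHL9, IFNE, IFNA1 and IFNB1) were detected on 0 arrays. MTAP, an enzyme of methionine salvage next to CDKN2A, was detected on 4 arrays with signals of -2.1 to 28.3, and MLLT3 on 9 arrays with 7.2 to 38.2. Neither was called in any comparison with DMSO. Interferon genes and ELAVL2 are normally silent in breast cells, and the array cannot tell a lost gene from a silent one.

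**Figure D3:**
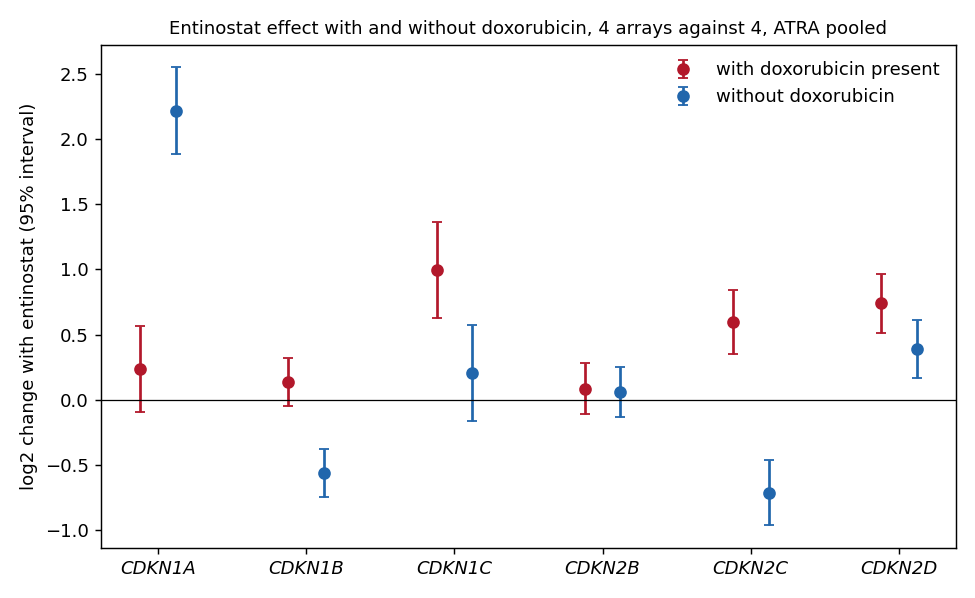
Log2 change with entinostat (vertical axis, bars are 95% intervals) for the 6 tested genes, with doxorubicin present or absent, 4 arrays against 4 with ATRA pooled. CDKN1A changes by 0.24 with doxorubicin and 2.22 without it, and CDKN2C by 0.60 with it and -0.71 without it.

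Counted over the 6 tested genes, calls of a rise were most frequent where entinostat and doxorubicin were combined, as they were over all genes. With all 3 drugs 4 of 6 genes were called higher and 0 lower (CDKN1A, CDKN1C, CDKN2C and CDKN2D), beside 13.0% of all 17126 genes called higher. With entinostat and doxorubicin 3 were higher and 0 lower, beside 13.2% of all genes called higher. Entinostat alone raised 1 (all genes 1.32%), doxorubicin alone 1 (6.48%) and ATRA with doxorubicin 1 (7.40%), each time CDKN1A. Entinostat with ATRA gave 1 higher and 2 lower, beside 2.46% of all genes called in either direction. ATRA alone gave 0 of 6 (0.0234% in either direction, or 4 genes in limma), with 0 of the 6 and 470 of all genes at an unadjusted p below 0.05. The median log2 change of the 6 genes was 0.74 with all 3 drugs and 0.67 with entinostat and doxorubicin, and over all genes both medians were -0.01.

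Averaged over all backgrounds, 8 arrays with a drug against 8 without it, doxorubicin raised 5 of 6 genes, all but CDKN2B, beside 19.8% of all genes called higher. The largest of these average log2 changes were 1.39 for CDKN1A and 0.98 for CDKN1C (adjusted p = 2.49e-07 and 1.41e-05), and the others were 0.45 for CDKN2C, 0.34 for CDKN2D and 0.32 for CDKN1B. Where entinostat was absent, the log2 changes of CDKN2C, CDKN2D and CDKN1B with doxorubicin were -0.21, 0.17 and -0.03, and none was called. Entinostat raised CDKN1A, CDKN1C and CDKN2D and lowered CDKN1B, 4 of 6 beside 23.2% of all genes called in either direction. Its average log2 changes were 1.23 for CDKN1A, 0.60 for CDKN1C, 0.56 for CDKN2D and -0.21 for CDKN1B (adjusted p = 4.18e-06, 0.00259, 0.000104 and 0.0222). The fall of CDKN1B was lost without any of 5 single arrays (adjusted p from 0.0501 to 0.0569), namely DMSO replicate 1, replicate 1 of the 3-drug group, entinostat replicate 2, ATRA replicate 2 and entinostat with doxorubicin replicate 2. The average log2 change of CDKN2C with entinostat was -0.06 (adjusted p = 0.689), with a rise on top of doxorubicin and a fall without it.

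Split by the other drug, 4 arrays against 4, doxorubicin on top of entinostat raised 4 of 6 genes (CDKN1B, CDKN1C, CDKN2C and CDKN2D), beside 15.8% of all genes called higher. Without entinostat it raised 2 (CDKN1A and CDKN1C), beside 12.8%. Entinostat on top of doxorubicin raised 3 (CDKN1C, CDKN2C and CDKN2D), beside 9.19%. Without doxorubicin it changed 4, raising CDKN1A and CDKN2D and lowering CDKN1B and CDKN2C, beside 7.47% of all genes called in either direction.

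The average effect of ATRA was called for 0 of the 6 genes (0.111% of all genes), and 0 of the 6 passed an unadjusted p below 0.05 in limma, while 745 of all genes did. The interaction of entinostat with doxorubicin was called for 3 of 6 genes, 2 positive (CDKN1B and CDKN2C) and 1 negative (CDKN1A), beside 1.86% of all genes, or 318 genes. The interactions of ATRA with either other drug gave 0 of 6 and 0 of all genes, with 0 of the 6 and 318 and 527 of all genes at an unadjusted p below 0.05.

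The 2 highest correlations between the tested genes crossed the families. Over the 8 group means, CDKN1B of the CIP/KIP family ran with CDKN2C of the INK4 family (Pearson r = 0.909), and CDKN1C ran with CDKN2D (r = 0.865). CDKN1A and CDKN2C had r = -0.0606, and CDKN1A and CDKN1B r = -0.157. Within the families r ran from -0.157 to 0.738, the latter between CDKN2D and CDKN2B, whose signals lay at the noise. CDKN1A and CDKN1C had r = 0.655. Between the families r ran from -0.0606 to 0.909. These are descriptions over 8 points, each the mean of 2 arrays, and the genes were read on the same arrays. The span of the group means was 2.91 log2 units for CDKN1A, 1.84 for CDKN1C, 1.23 for CDKN2C, 1.01 for CDKN2D, 0.86 for CDKN1B and 0.19 for CDKN2B.

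**Figure D4:**
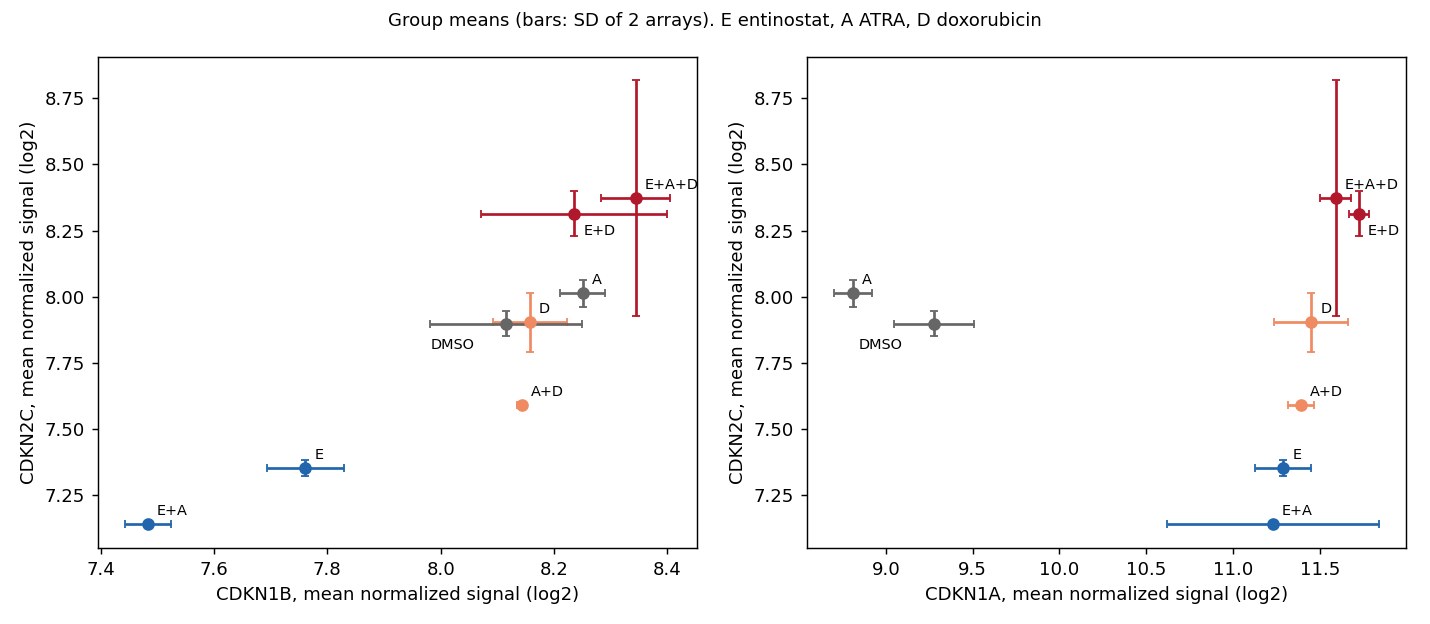
Group means of normalized signal (log2, bars are the SD of 2 arrays) for CDKN2C (vertical axis) against CDKN1B (horizontal axis, left) and CDKN1A (horizontal axis, right), 1 point per group. The left panel runs from entinostat with ATRA at the lower left to the 3-drug group at the upper right, and in the right panel the ATRA and DMSO groups stand apart on the left.

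Among 2469 other tested genes whose group means spanned at least 1 log2 unit, those nearest to CDKN1A over the 8 groups were ATP6V0A1 (r = 0.971), a subunit of the vacuolar proton pump, SERPINB2 (r = 0.9674), an inhibitor of plasminogen activators, MFNG (r = 0.9673), a Notch glycosyltransferase, KLHL22 (r = 0.9659) and FAM120B (r = 0.9606). Among the nearest to CDKN1C were ESPN (r = 0.9933), an actin bundling protein, NUAK2 (r = 0.99), a kinase, FGFR3 (r = 0.9885), a growth factor receptor, and ARC (r = 0.988). Nearest to CDKN2D were SLC12A9 (r = 0.987), EFNA1 (r = 0.9815), a ligand of Eph receptors, GJB2 (r = 0.9785), a gap junction protein, ATL1 (r = 0.9781) and HCP5 (r = 0.9766). CDKN2C stood more alone, with TROAP (r = 0.9588) first, then MXD1 (r = 0.8728), an antagonist of MYC, LOC100128288 (r = 0.8595), TRMT12 (r = 0.8586) and NUDT16L1 (r = 0.8545). All r are over the same 8 points and carry no test.

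A list of kinases, cyclins and pocket proteins, together with E2F factors and PCNA, changed mainly with doxorubicin, and more of its genes fell than rose. Of 20 tested genes of this list, 2 were called higher and 4 lower with doxorubicin, 2 higher and 8 lower with entinostat and doxorubicin, 2 higher and 7 lower with all 3 drugs, and 1 higher and 0 lower with entinostat. Of all tested genes, 6.48% were called higher and 7.12% lower with doxorubicin, 13.2% and 14.8% with entinostat and doxorubicin, 13.0% and 14.8% with all 3 drugs, and 1.32% and 0.257% with entinostat. CDK6, the kinase that INK4 proteins bind, had mean signals of 93.75 with entinostat and doxorubicin and 316.35 with doxorubicin, against 1091.55 in DMSO (log2 changes -2.86 and -1.60, adjusted p = 2.38e-06 and 0.000958). E2F2, a transcription factor that drives entry into S phase, rose, with 1800.2 under entinostat and doxorubicin and 1776.9 under doxorubicin, against 468.75 in DMSO (log2 changes 1.84 and 1.82). CCND2, the D-type cyclin called with entinostat alone, had 460.25 there, against 151.95 in DMSO (log2 change 1.25, adjusted p = 0.0202). That call was lost without entinostat replicate 1 or either DMSO array, and with the background fitted from the detection p-values. The list's median log2 change was -0.17 with entinostat and doxorubicin and -0.06 with doxorubicin, and over all genes it was -0.01 and 0.00. The count of 6 with doxorubicin was 3 without DMSO replicate 1.

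Of 21 tested transcription factors and repressors known to act on CDK inhibitor genes, 1 was called higher and 1 lower with doxorubicin, 2 higher and 5 lower with entinostat and doxorubicin, 3 higher and 6 lower with all 3 drugs, and 1 higher and 0 lower with entinostat. Of all tested genes, 6.48% were called higher and 7.12% lower with doxorubicin, 13.2% and 14.8% with entinostat and doxorubicin, and 13.0% and 14.8% with all 3 drugs, and the counts of higher genes in this list are near those shares. With entinostat the shares of all tested genes were 1.32% and 0.257%. BMI1, a Polycomb protein known as a repressor of CDKN2A, had mean signals of 1121.45 with entinostat and doxorubicin and 1879 with doxorubicin, against 4362.9 in DMSO (log2 changes -1.89 and -1.19, adjusted p = 3.12e-05 and 0.00306). EZH2, the Polycomb methyltransferase, rose with doxorubicin to a mean signal of 452.55, against 256.3 in DMSO (log2 change 0.69, adjusted p = 0.00293). SMAD3, which carries TGF-beta signals to CDKN2B and CDKN1A, fell with entinostat and doxorubicin to 188.3, against 454.6 in DMSO (log2 change -1.03, adjusted p = 0.00139). FOXO1, a factor that drives CDKN1B and CDKN1A in other cells, was the one called with entinostat alone (log2 change 0.77, adjusted p = 0.03). In that comparison CDKN1A had a called log2 change of 2.01 and CDKN1B an uncalled one of -0.35, and a link to FOXO1 was not tested. The FOXO1 call was lost without entinostat replicate 1 or either DMSO array, and with the background fitted from the detection p-values. The list's median log2 change was -0.25 with entinostat and doxorubicin and -0.11 with doxorubicin. The count of 2 with doxorubicin was 4 with the replicate number as a block. The count of 7 with entinostat and doxorubicin was 3 without DMSO replicate 1 and 4 without replicate 2 of the treated group. The count of 9 with all 3 drugs was 2 without replicate 1 of that group and 4 without DMSO replicate 1.

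Genes of the ubiquitin ligases and other factors that set the stability of p21, p27 and p57 changed in both directions with doxorubicin. Of 14 tested genes, 4 were called higher and 3 lower with doxorubicin, 3 higher and 5 lower with entinostat and doxorubicin, 3 higher and 4 lower with all 3 drugs, and 0 with entinostat. The shares of all tested genes called higher and lower were 6.48% and 7.12%, 13.2% and 14.8%, and 13.0% and 14.8% for the first 3 of these, and 1.32% and 0.257% with entinostat. The list's median log2 change was 0.02 with doxorubicin, -0.08 with entinostat and doxorubicin and -0.01 with all 3 drugs, and over all genes it was 0.00, -0.01 and -0.01. SKP2, which marks p27 for destruction, fell to 0.50-fold with doxorubicin (adjusted p = 0.000881), as did CDC20, an activator of the anaphase-promoting complex (log2 change -1.04, adjusted p = 0.00946). FBXL12, an F-box protein, and DTL, which marks p21 for destruction on chromatin, were higher with entinostat and doxorubicin (log2 changes 1.18 and 1.01, adjusted p = 0.00126 and 0.00329). The count of 7 with doxorubicin was 1 without DMSO replicate 1 or doxorubicin replicate 2, and 3 without DMSO replicate 2. Arrays measure mRNA, so protein levels of the inhibitors were not measured.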

How the data were processed

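The 7 genes and the gene lists were chosen with earlier results of these data known. The authors deposited 1 table of signal intensities with a detection p-value per gene and array, and 1 table of log2 values, of which the submitters' processing notes say only that limma was used. Per the file headers each row is a gene name, and the sources do not state how probes were combined. A background had been subtracted before deposit, since 27.5% to 28.2% of an array's intensities were negative. The intensities may also have been made alike between arrays before deposit. Their medians were 8.3 to 8.7, and highest values such as 22098.4 recurred exactly on different arrays.

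Spike-ins (92) and unnamed sequence clusters (3270) were left out. With limma 3.58.1 in R 4.3.3, signals were background corrected (normexp, offset 50), normalized by quantiles and log2 transformed. Genes with a detection p-value below 0.05 on at least 2 arrays entered 1 fit of 8 group means (lmFit, contrasts, eBayes, 8 residual degrees of freedom), with Benjamini-Hochberg adjustment per contrast. Folds are on the offset scale and understate changes of dim genes. A group was not well above background if none of its arrays had a detection p-value below 0.05 or a signal of 22.3 or higher. The 4 contrasts that split the interaction of entinostat with doxorubicin were added after the values were seen, and so were their alternatives. From each list the text names the called genes with the largest changes, and for likeness the 5 highest correlations. Some genes and 1 gene list are not reported here. The script was tested on simulated data. Replicate numbers were checked as pairs through the deviations of replicate 1 from its group mean. Over 28 pairs of groups these correlated at 0.0194 to 0.424, all above 0 and 26 of them over 0.1. Same-numbered arrays thus tended to deviate alike (median 0.22), from a source that the labels do not name. The main fit has no block because the labels name no shared batch and 0.1 was not passed by every pair. Its p-values therefore leave these shared deviations in the spread. Calls of the CDK inhibitor genes that a replicate block changes are given.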

Additional observations from a re-analysis of the deposited data

Results flagged for a closer look

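The interaction of entinostat with doxorubicin, which is the change with entinostat where doxorubicin was present minus its change where it was absent, was called for 3 of the 6 tested genes. It was -1.98 for CDKN1A, 0.70 for CDKN1B and 1.31 for CDKN2C on the log2 scale (limma adjusted p = 0.000459, 0.0107 and 0.00124). CDKN1A rose less with entinostat on top of doxorubicin than without it, and the fall of CDKN1B and CDKN2C with entinostat was called only where doxorubicin was absent. Each of the 3 kept its sign and its call in all 23 alternatives, with values of -2.62 to -1.76, 0.24 to 0.81 and 0.40 to 1.55. The summed signal of 6 luminal markers was higher on the arrays with entinostat (1102 to 3213) than on those without it (301.8 to 753.4). KRT19 alone had 898.5 to 2986 and 129.9 to 572.3 on these arrays. The part of these markers in the interaction values was not tested. Groups of 2 arrays are too small to look for single arrays that stand apart.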

How the results depend on the processing

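Of 102 pairs of gene and contrast, 38 were called, and 31 of these stayed called in every alternative run (another background fit or offset, no quantile normalization, the authors' log2 values, other detection filters, only the arrays of the contrast, a replicate block, and each array left out). None of the called changes turned its sign. The run without quantile normalization tests little, since the deposited signals were already much alike between arrays. It called 273 genes for entinostat against DMSO, where the main fit called 270. With the replicate number as a block, which the labels do not say marks a shared culture, 2 genes were called against DMSO for each of entinostat (adding CDKN2D, adjusted p = 0.0259), doxorubicin (adding CDKN1C, 0.00773) and ATRA with doxorubicin (adding CDKN1C, 0.0314), in place of 1. Over all tested genes, the block moved the calls against DMSO from 270 to 546 with entinostat and from 2329 to 3116 with doxorubicin. With ATRA and doxorubicin they moved from 2564 to 3319. The rise in calls was not limited to the CDK inhibitor genes. In fits of only the arrays of the contrast, 2 of the CDK inhibitor genes were also called for doxorubicin and for ATRA with doxorubicin. The added gene was CDKN1C (adjusted p = 0.0444 and 0.0474). Over all tested genes these fits gave 1030 calls for doxorubicin, fewer than the main fit, and 2776 for ATRA with doxorubicin, more than it. Leaving out 1 array gave 1 to 2 genes for entinostat with ATRA in place of 3, 3 to 4 for all 3 drugs and for the average of entinostat, 3 to 4 for the interaction of entinostat with doxorubicin, and no other change in the counts. Each fit without 1 array leaves a single array in a group. For entinostat with ATRA and for all 3 drugs, each such fit also called fewer of all tested genes. Normexp fitted from the detection p-values, which did not follow the signals of CDKN1A, CDKN2C and CDKN2D, gave smaller changes for several genes. Examples were 0.40 for the interaction of CDKN2C and 0.38 for CDKN1C with entinostat and doxorubicin. Entinostat without doxorubicin changed CDKN2D by 0.12 in this fit. Changes of CDKN1A were larger (-2.62 for its interaction). This fit ended the calls of CDKN2C with entinostat and ATRA (adjusted p = 0.323) and with all 3 drugs (0.0799). Without doxorubicin, it ended those of entinostat on CDKN2C (0.0944) and CDKN2D (0.127), and without entinostat that of doxorubicin on CDKN1C (0.336). The rise of CDKN2C with all 3 drugs was also lost with offset 16 (0.063), with no detection filter (0.0529) and with only the arrays of the contrast (0.126). The causes were not tested. Signals of CDKN2A and CDKN2B at the level of the noise limit what can be said of them.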
